A study of Mus musculus with 6 samples.

Results

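Metallothioneins and zinc transporters were examined in the skeletal muscle of mice that lack Rpt3, a subunit of the 26S proteasome encoded by Psmc4. The members were 9 genes chosen by symbol, of the 18562 genes named on the array: Mt1, Mt2, Mt3, Mtf1, Slc39a14, Slc39a1, Slc39a8, Slc30a1 and Slc30a2. A probe was found for 8 of them, 1 probe for each gene, and Mt3 had none that could be named. Total RNA was compared between 3 Rpt3-/- mice and 3 Rpt3+/+ mice on 6 CodeLink mouse whole-genome arrays, 1 for each mouse. All mice were female and 6 weeks old. The labels give both groups the strain mlc1f-Cre/ Rpt3-floxed and tell them apart as Rpt3 null and control, and in the paper control mice are described as Mlc1f-Cre/Rpt3+/+, so that both groups carried the Cre transgene. Cre was driven by the promoter of myosin light chain 1 fast, which in adult muscle is active in fast-twitch fibers, and the RNA came from whole muscle with all its other cells. The labels name the tibialis anterior and the paper names the gastrocnemius for the microarray.

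Metallothioneins are small, cysteine-rich proteins that bind zinc and copper. Their genes are switched on by free zinc through MTF-1, a zinc-finger transcription factor that binds metal response elements in their promoters, and also by glucocorticoids, inflammatory cytokines and oxidative stress. Zinc enters the cytosol through the ZIP importers, the Slc39a family, and leaves it through the ZnT exporters, the Slc30a family. In skeletal muscle, metallothionein mRNA is known to rise in several forms of atrophy.

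Mt4, Mt3, Mt2 and Mt1 follow each other in this order on chromosome 8, with 1 annotated non-coding gene, Gm39227, between Mt3 and Mt2. The short stretches shown here hold the core of the metal response element, the sequence that MTF-1 binds, in the promoters of the members whose RefSeq window held more than 1 copy. The core was searched as TGCACNC and TGCGCNC on both strands, from 250 bases before the RefSeq start of each gene to 50 bases after it. The letters are RefSeq's for GRCm38.p6, on the plus strand, on which these genes lie, and the capitals mark the core or its reverse complement.
Mt1, chr8:94179056-94179082: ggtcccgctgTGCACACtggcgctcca
Mt1, chr8:94179081-94179107: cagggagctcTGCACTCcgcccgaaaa
Mt1, chr8:94179099-94179125: gcccgaaaagTGCGCTCggctctgcca
Mt2, chr8:94172385-94172411: gcatcgcctcTGCACCCggcccctcgg
Mt2, chr8:94172480-94172506: gcagacccttTGCGCTCagctcctttg
Mt2, chr8:94172558-94172584: gggggagggcGTGTGCAggctctgtcc
Mt2, chr8:94172612-94172638: aattcgggtcGTGCGCAggcccagggg
Slc30a1, chr1:191906728-191906754: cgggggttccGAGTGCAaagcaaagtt
Slc30a1, chr1:191906801-191906827: cctccgggccGAGCGCAgtcgccgcgg
Slc30a2, chr4:134343249-134343275: cccGCGCGCAacttcgaGGGCGCAccg

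The Mt2 window held 4 copies of the core, a number reached by 0.517% of the 32851 promoter windows. The Mt1 window held 3 copies, a number reached by 1.97% of them. Slc30a1 and Slc30a2 had 2 copies each, and 7.11% of the windows had 2 or more; in Slc30a2 both copies lie in the 1 stretch shown. Mt3 and the second of the 2 windows of Slc39a8 had 1 copy, and 25.7% of the windows had 1 or more. No copy was present in the windows of Mtf1 and Slc39a1. The core of the antioxidant response element, TGACNNNGC on either strand, was present in 12.4% of the windows and in those of Mt2, Slc30a1, Slc39a1 and the first window of Slc39a8. Of the 9 members, 8 had a promoter entry, and Slc39a14 had none. A match to these letters is not evidence of binding, and a window without a match says nothing of the factor. The windows follow the RefSeq start, so copies beyond them or near another start were not counted.

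**Figure D1:**
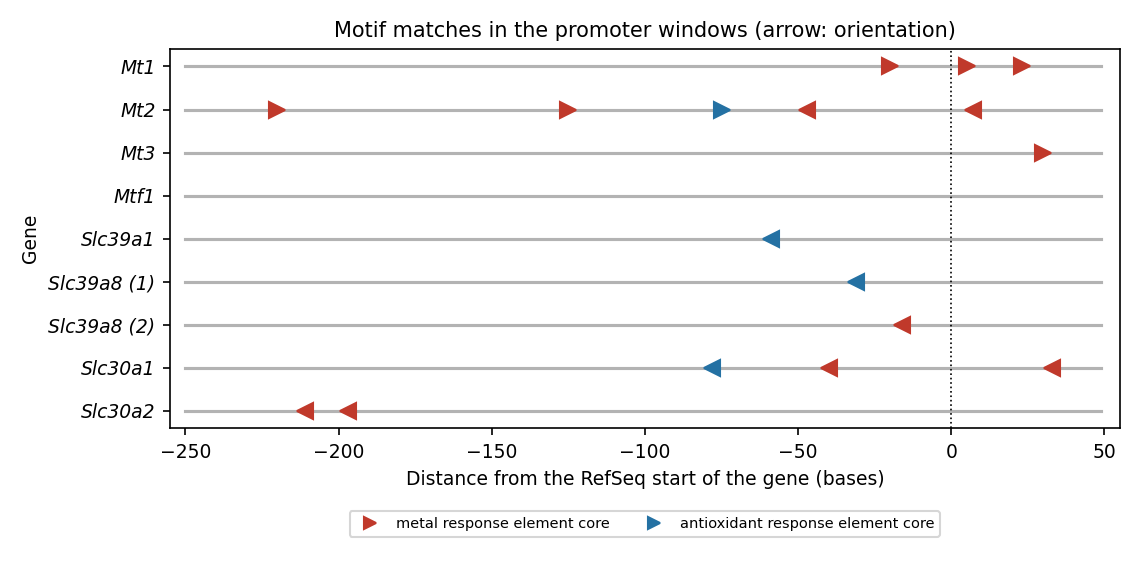
Matches to the metal response element core (red) and the antioxidant response element core (blue) in the promoter windows of 8 members, by distance in bases from the RefSeq start of the gene; an arrow to the right marks the strand of the gene and one to the left the other strand. The window of Mt2 has 4 metal response element cores and that of Mt1 has 3, and those of Mt1 lie within 30 bases of the RefSeq start.

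The probe for Psmc4, the targeted gene, read 10.01, 9.78 and 9.85 in Rpt3-/- mice and 11.16, 10.91 and 11.06 in Rpt3+/+ mice, in log2 intensity, so that each array stood on the side of its label; where in the transcript the probe binds is not known here. All 10 measured markers of the muscle fiber were above background on every array with a usable spot. Between 57.0% and 74.5% of the transcript probes were above background on an array, with the lowest share on control array 2.

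A log2 difference of 1 is a doubling of the normalized intensity, and a gene was called where its p-value from limma, adjusted over the 14731 genes tested, was under 0.05. Of the 7 members that could be tested, Mt1 and Mt2 rose in the Rpt3-/- muscle and none fell. Over all genes tested, 19.3% were called, 12.7% as higher and 6.56% as lower. All differences are relative to the quantile-normalized arrays; centring on Actb, itself called higher, moved the median of all genes to -0.72 and put the 5 other tested members among the genes that fell. At an unadjusted p under 0.05, limma gave 2 members as higher and 2 as lower, beside 19.2% and 12.9% of all genes tested. The unpaired test named in the study's methods, called the methods' test here, gave 2 and 1, beside 17% and 11.1%. After normalization, the arrays of both groups did not overlap for 5 members, 3 higher and 2 lower in Rpt3-/- mice. Over all genes tested this share was 36.8% (21.2% higher and 15.6% lower). Mt2 entered the test through the Rpt3-/- arrays, since only 1 of the Rpt3+/+ arrays read it above background. Mtf1 was above background on 1 of the 6 arrays and was not tested.

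Mt1, a metallothionein made in nearly all tissues, had log2 intensities of 14.19, 13.22 and 13.48 in Rpt3-/- mice 1, 2 and 3 and of 11.87, 11.15 and 11.50 in Rpt3+/+ mice 1, 2 and 3. The lowest Rpt3-/- array stood above the highest Rpt3+/+ array. Mean levels were 13.63 ± 0.50 (SD, n = 3) and 11.51 ± 0.36 (SD, n = 3). The difference was 2.13 (SE 0.25; 95% confidence interval 1.56 to 2.69), or 4.37-fold, with an adjusted p of 0.000421 from limma, and it was the 34th largest rise among the genes tested. Before any normalization, the background-subtracted intensities were 18348, 9836 and 12359 in Rpt3-/- mice and 3766, 1572 and 2468 in Rpt3+/+ mice, and these groups did not overlap either.

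Mt2, the neighbouring gene with the same range of inducers, had log2 intensities of 8.75, 7.87 and 8.12 in Rpt3-/- mice and of 6.62, 6.37 and 6.50 in Rpt3+/+ mice. Every Rpt3-/- array was above every Rpt3+/+ array. Mean levels were 8.25 ± 0.45 (SD, n = 3) and 6.49 ± 0.12 (SD, n = 3), a difference of 1.75 (SE 0.21; 95% confidence interval 1.29 to 2.21) or 3.37-fold, with an adjusted p of 0.000397 from limma. These values set the Rpt3-/- arrays against a group in which 2 of the 3 spots were not above background, so the size of the fold is uncertain. In the controls the background-subtracted intensities were 60.1, 17.5 and 33.3 against 411, 209 and 240 in Rpt3-/- mice. The offset of 50 that was added before the logarithm draws the difference of such a probe towards 0. With the background subtracted and no offset the log2 difference was 2.79, and with an offset of 16 it was 2.26.

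Within the Rpt3-/- mice, array 1 was the highest for both Mt1 and Mt2, followed by array 3 and array 2, and the Rpt3+/+ arrays fell in the same order for both genes. Mt1 and Mt2 have similar coding sequences, the probe sequences are not known here, and binding of 1 transcript to both probes was not tested. Each gene was also set relative to its own mean in the Rpt3+/+ mice and compared over the 6 arrays. The root mean square distance between Mt1 and Mt2 on this log2 scale was 0.30, and Mt2 was the 14th closest gene to Mt1. Both values were taken with the offset of 50, which draws the difference of Mt2 towards 0.

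The genes closest to Mt1 were Tti2, a partner of the kinases of the mTOR and DNA damage response family (distance 0.156), Serpina3n, an extracellular serine protease inhibitor (0.198), and Slpi, a secreted inhibitor of leukocyte proteases (0.206). Tti2 had a second probe, which was not above background on any array. Serpina3n was above background on 1 of the 3 Rpt3+/+ arrays and Slpi on 2, so their distances rest in part on dim spots. The genes closest to Mt2 were C1qc, a chain of complement C1q made by macrophages (0.109), Gpx3, a secreted glutathione peroxidase (0.130), and Dap, a gene linked to cell death and autophagy (0.137). A second probe for Dap, above background on every array, differed by 1.44, against 1.80 for the probe used. These are likenesses over 6 arrays that share the contrast between the groups, and they carry no test.

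**Figure D2:**
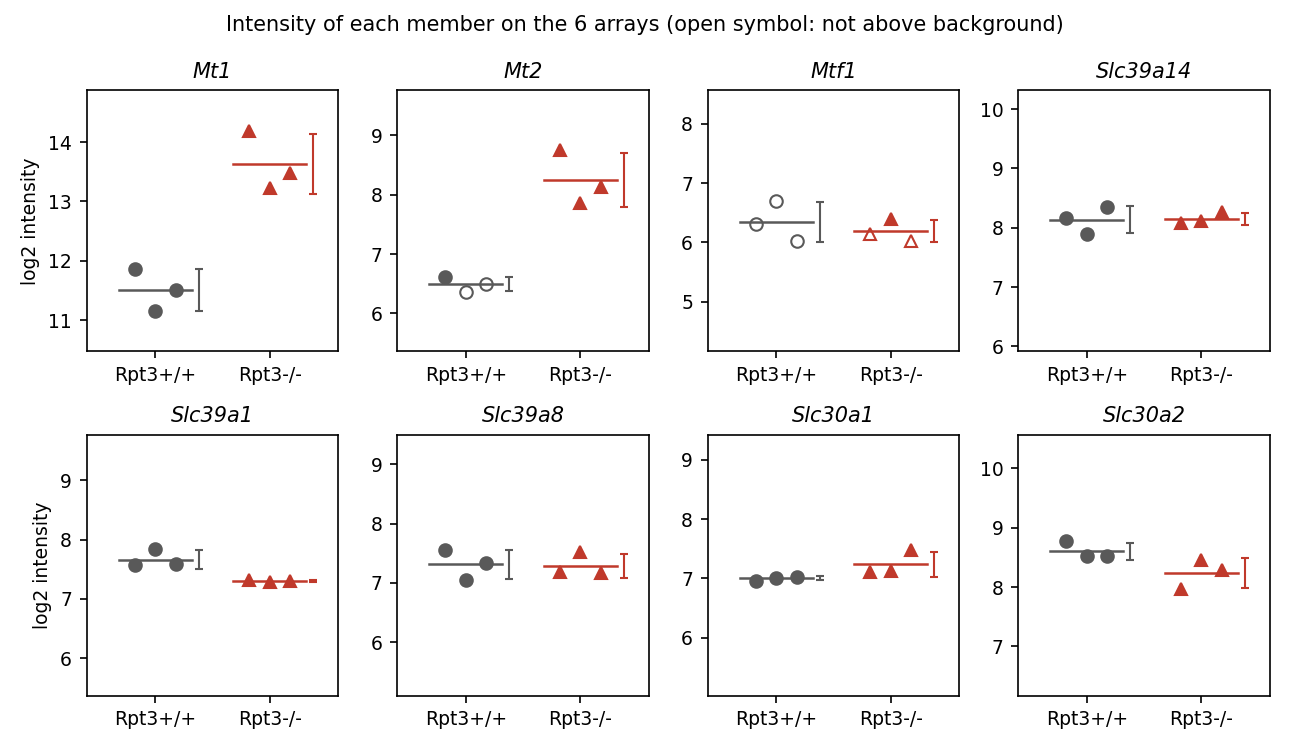
Log2 normalized intensity of the 8 members with a probe, with 1 point for each array, circles for Rpt3+/+ and triangles for Rpt3-/- mice; horizontal lines are group means, error bars are SD (n = 3), and open symbols are spots not above background. All panels span the same number of log2 units; Mt1 and Mt2 are the panels in which the groups stand well apart, by 2.13 and 1.75.

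Mtf1, the zinc sensor that drives the metallothionein genes, had log2 intensities of 6.15, 6.39 and 6.02 in Rpt3-/- mice and of 6.31, 6.70 and 6.02 in Rpt3+/+ mice. The groups overlapped, and the spot was above background on Rpt3-/- array 2 alone, so that a change in Mtf1 mRNA was not detectable at this signal. In the list of other metallothioneins and reported MTF-1 targets, Mt4 had a probe but was too dim to be tested. The 5 genes tested were all reported MTF-1 targets and not metallothioneins. Among them no call was made by limma or by the methods' test, also at an unadjusted p under 0.05. Their median log2 difference was -0.06, beside -0.01 over all genes tested. Gclc, the catalytic subunit of glutathione synthesis, differed by 0.19 (SE 0.15), and Ndrg1 by -0.31 (SE 0.16), with adjusted p of 0.419 and 0.212 from limma.

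Among the importers, Slc39a14 (ZIP14), a cell-surface carrier of zinc and iron, had log2 intensities of 8.09, 8.11 and 8.27 in Rpt3-/- mice and of 8.17, 7.89 and 8.34 in Rpt3+/+ mice. The groups overlapped, and the difference of 0.02 (95% confidence interval -0.31 to 0.35) was not called (adjusted p = 0.940, limma). Slc39a8 (ZIP8), a carrier of zinc and manganese, read 7.18, 7.52 and 7.16 against 7.55, 7.05 and 7.34. These groups overlapped too, with a difference of -0.02 (95% confidence interval -0.39 to 0.35; adjusted p = 0.944, limma).

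Slc39a1 (ZIP1), a broadly expressed importer of the plasma membrane, had log2 intensities of 7.32, 7.29 and 7.30 in Rpt3-/- mice and of 7.57, 7.84 and 7.58 in Rpt3+/+ mice. All Rpt3-/- arrays stood below all Rpt3+/+ arrays. The difference was -0.36 (SE 0.13; 95% confidence interval -0.65 to -0.07, not adjusted for the number of genes), and with an adjusted p of 0.0790 from limma it missed the threshold. Before normalization, control array 2 had a background-subtracted intensity of 109, inside the range of 106 to 121 of the Rpt3-/- arrays.

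Of the exporters, Slc30a1 (ZnT1), which moves zinc out across the plasma membrane and is itself a target of MTF-1, read 7.11, 7.13 and 7.48 in Rpt3-/- mice and 6.96, 7.01 and 7.02 in Rpt3+/+ mice. The groups did not overlap, Rpt3-/- being higher, but before normalization they did. The background-subtracted intensity of Rpt3+/+ array 1 was then 94.0, inside the range of 87.6 to 129 of the Rpt3-/- arrays. The difference of 0.24 (SE 0.14; 95% confidence interval -0.07 to 0.55) was not called (adjusted p = 0.271, limma). Slc30a2 (ZnT2), which loads zinc into vesicles, read 7.97, 8.46 and 8.29 in Rpt3-/- mice and 8.77, 8.52 and 8.53 in Rpt3+/+ mice. Its groups did not overlap either, Rpt3-/- being lower, and the difference of -0.37 (SE 0.16; 95% confidence interval -0.71 to -0.02) had an adjusted p of 0.133 from limma. Before normalization, Rpt3+/+ array 2 had a background-subtracted intensity of 198 for Slc30a2, below the range of 208 to 340 of the Rpt3-/- arrays. With no normalization between arrays its difference was -0.15 and was not called. The upper bounds of the intervals for Slc39a14, Slc39a8 and Slc30a1, of 0.35 to 0.55, lay below the lower bounds of Mt1 and Mt2. These bounds hold with the offset of 50, which draws the differences of dim probes towards 0. With the background subtracted and no offset, Slc30a1 differed by 0.39 (SE 0.19) and was not called.

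Of 7 other ZIP importers tested, 1 rose and none fell, with a median of 0.03; limma gave 2 of them as higher and 2 as lower at an unadjusted p under 0.05, and none was called by the methods' test. The riser was Slc39a6 (ZIP6), with a log2 difference of 0.63 (SE 0.19; adjusted p = 0.0419, limma); its call was lost in 9 of 20 other settings, among them without Rpt3-/- array 1 or 3 or without Rpt3+/+ array 1 or 3. Of 4 other ZnT exporters tested, Slc30a4 (ZnT4), a transporter of intracellular vesicles, rose by 0.84 (SE 0.12; adjusted p = 0.00124, limma) and the other 3 were not called. Over both lists 1 ZIP and 1 ZnT gene were called, a share near the 19.3% of all genes tested. Slc30a4 read 10.19, 10.10 and 10.09 in Rpt3-/- mice and 9.18, 9.34 and 9.35 in Rpt3+/+ mice, with no overlap.

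Of 8 copper-handling genes tested, 4 rose and none fell, beside 12.7% and 6.56% of all genes tested, with a median of 0.25. The counts were the same at an unadjusted p under 0.05 from limma, beside 19.2% and 12.9%. Centred on Actb, 1 was called higher and 4 lower. The methods' test, array weights and the fits without Rpt3-/- array 2, Rpt3-/- array 3 or Rpt3+/+ array 3 each called 2 higher. Sod1, the cytosolic copper and zinc superoxide dismutase, rose by 1.17 (SE 0.13; adjusted p = 0.000302, limma) and Atox1, a copper chaperone, rose by 0.86 (SE 0.16; adjusted p = 0.00393, limma). Ccs, the chaperone that delivers copper to Sod1, and Commd1, a regulator of copper export, rose by 0.52 and 0.39; the call of Commd1 was lost in 15 of 20 other settings and that of Ccs in 6, in both cases also without Rpt3-/- array 2 or 3 or without Rpt3+/+ array 3.

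Of 13 iron-handling genes tested, 3 rose and 3 fell, beside 12.7% and 6.56% of all genes tested, with a median of -0.03. Hmox1, the heme-degrading oxygenase and another gene of oxidative stress, rose by 1.68 (SE 0.14; adjusted p = 6.02e-05, limma). Ftl1 and Fth1, the ferritin chains, rose by 0.78 and 0.77. Tfrc, the transferrin receptor, fell by 1.49 (SE 0.36; adjusted p = 0.0166, limma), Slc40a1, the iron exporter, fell by 1.13 and Hjv, a co-receptor for iron signaling made in muscle, fell by 0.80. The calls of Tfrc and Slc40a1 were both lost without Rpt3-/- array 1 and without Rpt3+/+ array 3, and that of Tfrc also without Rpt3-/- array 3.

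**Figure D3:**
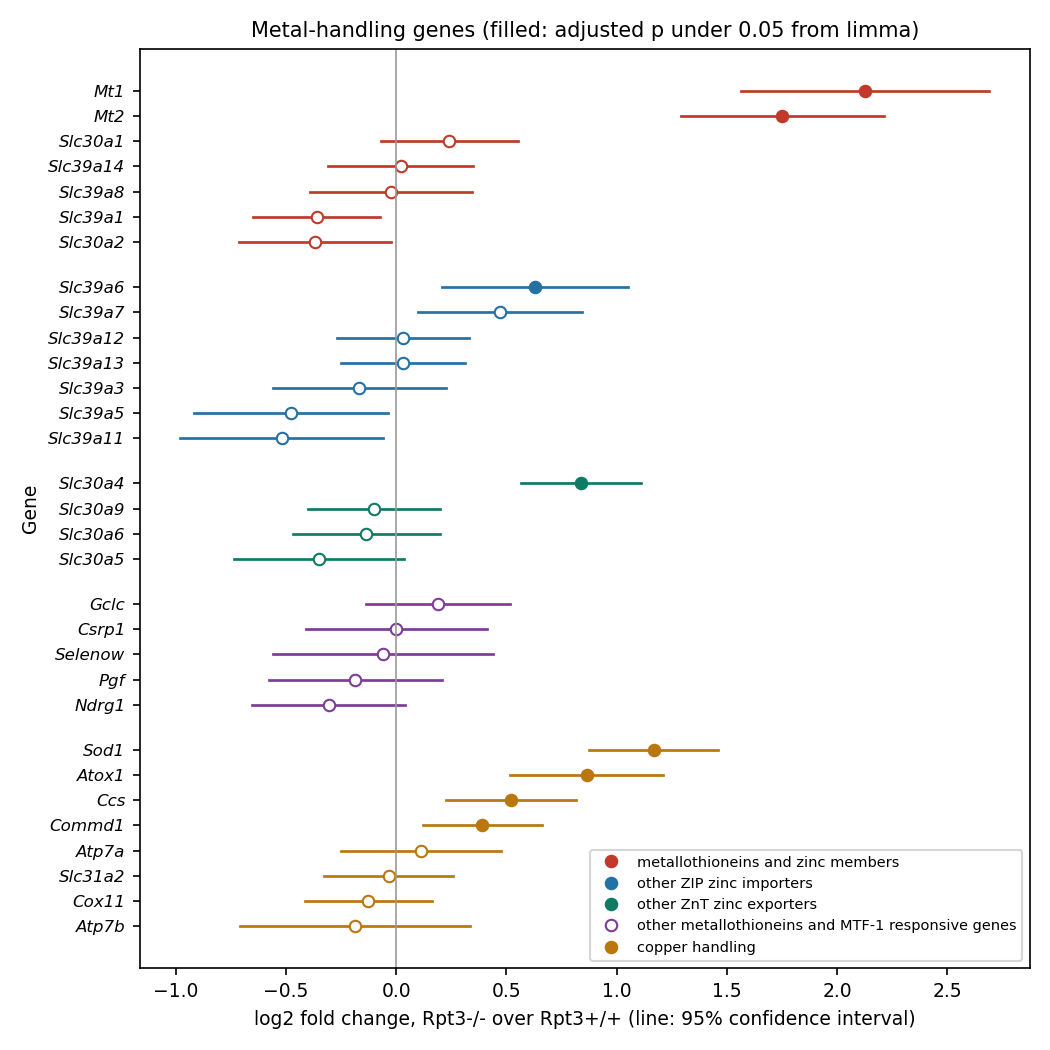
Log2 fold change of Rpt3-/- over Rpt3+/+ muscle (x axis) for the members and for the other genes of zinc and copper handling that could be tested, 1 gene a row; lines are 95% confidence intervals and filled points are genes with an adjusted p under 0.05 from limma. Mt1 at 2.13 and Mt2 at 1.75 lie beyond the other genes drawn, the next being Sod1 at 1.17.

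Glucocorticoids and cytokines of the IL-6 family also induce metallothioneins. Of 15 glucocorticoid-responsive genes tested, 2 rose and 4 fell, with a median of -0.31, beside 12.7% and 6.56% of all genes tested. At an unadjusted p under 0.05, limma gave 3 as higher and 8 as lower, beside 19.2% and 12.9%. The arrays of both groups did not overlap for 3 genes on the higher and 9 on the lower side, beside 21.2% and 15.6%. These counts moved with the setting. The methods' test called 1 higher and 1 lower, and no normalization between arrays 2 and 1. Without 1 array at a time 1 to 3 were called higher and 2 to 6 lower. Centred on Actb, 1 was called higher and 11 lower. Angptl4, an inhibitor of lipoprotein lipase, rose by 1.55 and Cebpd, a transcription factor, by 0.80, whereas Dusp1, a MAP kinase phosphatase, fell by 0.99 and Nr3c1, the glucocorticoid receptor, by 0.86. Of 14 genes of the IL-6 family and STAT3 list tested, 2 rose and 2 fell, beside 12.7% and 6.56% of all genes tested. Their median was 0.16. Pim1 and Socs3, targets of STAT3, rose by 1.02 and 0.70, and the kinases Jak2 and Jak1 fell by 0.61 and 0.59. The calls of Cebpd and Socs3 were lost without Rpt3-/- array 1 or 3 and without Rpt3+/+ array 3, that of Jak2 without Rpt3-/- array 1 or Rpt3+/+ array 3, and that of Jak1 without Rpt3+/+ array 3.

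Markers of some other cells were also higher in the Rpt3-/- muscle. The counts here stand beside 12.7% of all genes tested called higher and 6.56% called lower. Of 13 macrophage markers tested, 12 rose and none fell (9 and 1 when centred on Actb), with a median of 1.41, and the summed intensity of the list ran from 8406 to 12530 in Rpt3-/- mice and from 3089 to 3365 in Rpt3+/+ mice. Ctss, a lysosomal protease, rose by 2.68, and C1qa, a chain of complement C1q, by 2.13. The methods' test called 7 of them, and without 1 array at a time 10 to 11 were called. Of 9 fibroblast markers 4 rose, among them Postn (1.24) and Fn1 (1.05), and the summed intensity ran from 31740 to 32906 against 20371 to 24518; 2 to 4 were called without 1 array, 2 by the methods' test, and 7 with median centring or with no normalization between arrays, the call of Postn being lost without Rpt3+/+ array 3 or without any 1 of the Rpt3-/- arrays.

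Of 3 adipocyte markers Cfd (1.57) and Adipoq (1.21) rose, and the methods' test called none. The sums were 7607 to 8627 against 5164 to 6084. Fabp4, the brightest of the 3, makes up most of these sums and was not called (0.28, adjusted p = 0.152, limma). Of 3 neutrophil markers S100a8 rose (1.10), while Ngp differed by -0.39 (adjusted p = 0.114, limma), its groups not overlapping, and Ltf by -0.05; the sums were 596 to 698 against 561 to 624. Of 10 muscle fiber markers Myh1 rose (0.70) and Actn3 fell by 0.64, the latter not without Rpt3+/+ array 3; cyclic loess normalization called 6 of the 10 lower, and none was called lower with no normalization. The summed intensity of the 9 markers with a usable spot on every array, 170270 to 178495, overlapped with that of 177293 to 193665. Most of these markers are among the brightest probes, to which quantile normalization gives the same set of values on every array. The sum can therefore not tell whether fiber RNA changed. In the reported setting no call was made by limma or by the methods' test among 7 endothelial, 2 satellite cell and 5 Schwann cell markers. At an unadjusted p under 0.05, limma gave 1 endothelial marker as lower and 2 satellite cell markers as higher. The methods' test gave 1 satellite cell and 1 Schwann cell marker as higher. Calls appeared in some other settings, such as 2 satellite cell markers higher with median centring and 1 endothelial marker lower with the replicate block. The part of these cells in the rise of Mt1 and Mt2 was not tested, and in RNA from whole muscle a change in the number of cells of a type and a change in RNA per cell cannot be told apart.

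**Figure D4:**
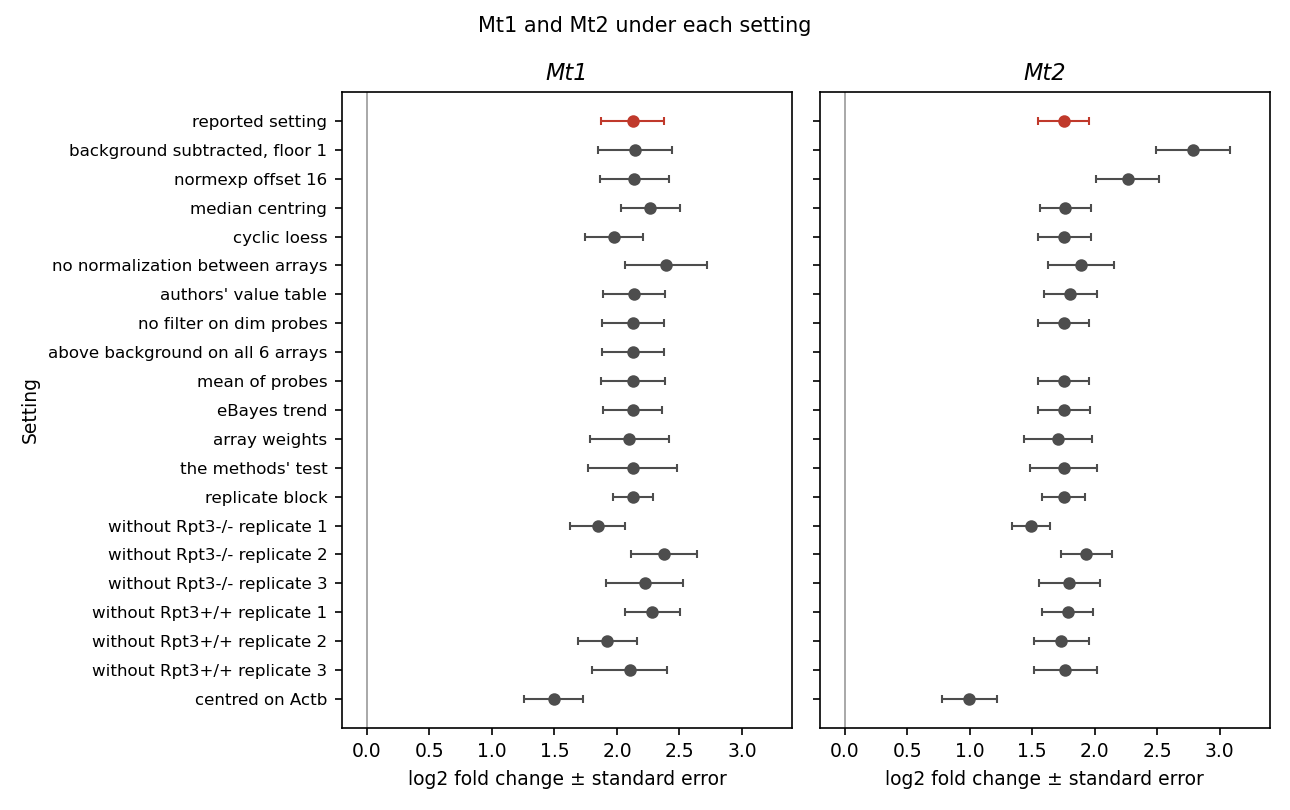
Log2 fold change of Mt1 (left) and Mt2 (right) in Rpt3-/- over Rpt3+/+ muscle, with its standard error, under the reported setting (red) and each other setting (grey), 1 a row; Mt2 has no point where a probe had to be above background on all 6 arrays. All points lie above 0, the lowest being those centred on Actb, at 1.496 for Mt1 and 0.998 for Mt2.

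Mt1 and Mt2 rose under every setting in which they were tested. Over the planned settings of background correction, normalization, filter and test, the log2 difference ran from 1.97 to 2.39 for Mt1 and from 1.71 to 2.79 for Mt2. Without 1 array at a time it ran from 1.85 to 2.38 for Mt1 and from 1.49 to 1.93 for Mt2. The adjusted p from limma reached at most 0.00376 and 0.00344. In the reported setting Mt2 passed the filter through the Rpt3-/- arrays, since only 1 Rpt3+/+ array read it above background. It was not tested where a probe had to be above background on every array.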

How the data were processed

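Muscle RNA of 3 Rpt3-/- and 3 Rpt3+/+ mice, labelled with Cy5, was hybridised by the authors to CodeLink arrays, 1 per mouse. The deposited scanner reports, written by CodeLink Expression Analysis 5.0.0.31312, give for each spot an intensity, a local background and a quality flag, not normalized across arrays. A table of normalized intensities, also from the authors, served as an alternative.

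Of 34967 transcript probes, 21615 had 1 symbol in the platform annotation, 681 had several and were not named, 535 were named through a RefSeq accession and 12136 stayed unnamed. Background correction (normexp, offset 50), quantile normalization and the fit of log2 intensities (lmFit, eBayes) were done in limma 3.58.1 under R 4.3.3, without control spots after the first step, and p-values were adjusted by Benjamini-Hochberg over all genes tested. Testing required a probe above background on 3 or more arrays, and the brightest such probe stood for its gene. The methods' test is Student's unpaired test on the same values. Intervals are at 95% and cover a single gene. The number of arrays, 3 per group, limits the precision. Nothing in the sources tells whether litter or day was shared.

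The members, gene lists and markers were chosen with earlier results of these data known. All members are named, together with up to 4 called genes of each pathway list and up to 2 of each marker list. Called genes were taken by the size of the change, and the 3 genes closest to Mt1 and to Mt2 are also named. Ftl1, Fth1, Gclc, Ndrg1, Ngp, Ltf and Fabp4 were added after their values were seen. Promoter letters were searched in Python 3.11.15. The fit was tested on simulated data, and the noise model of the simulation was revised after earlier versions had recovered few of the changed genes; the fit itself was not altered. Alternatives covered background correction, normalization, filter, probe choice, test, replicate block and leaving out each array.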

Additional observations from a re-analysis of the deposited data

How the results depend on the processing

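Mt1 and Mt2 kept their direction and their calls under every alternative in which they were tested; with a probe required above background on all 6 arrays Mt2 was not tested, and 1 member was called higher. By the methods' test the adjusted p was 0.0466 for Mt1 and 0.0407 for Mt2. Over all genes, 1870 were called higher and 967 lower in the reported setting. The methods' test called 940 and 427, median centring called 600 lower, and no normalization between arrays called 154 lower. Without 1 array the calls ran from 1087 to 2314 higher and from 390 to 1453 lower: 1189 and 478 without Rpt3-/- array 1, 1087 and 542 without Rpt3-/- array 3, 1099 and 390 without Rpt3+/+ array 3, and 1453 lower without Rpt3+/+ array 1. The cause was not tested.

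Slc39a8 lay near 0 and turned to 0.096 with no normalization and to 0.058 with array weights, and ran from -0.16 to 0.095 without 1 array; Slc39a14 ran from -0.10 to 0.13. Centring on Actb was chosen after the data were seen. Actb itself was called higher, and this centring moved the median of all genes to -0.72, with 329 called higher and 10326 lower. It put 5 members on the lower side, with Slc39a14 at -0.68 and Slc30a1 at -0.52, both above that median, and Slc39a8 at -0.80, Slc30a2 at -1.04 and Slc39a1 at -1.10, below it, and it ended the calls of Slc39a6, Slc30a4, Atox1, Ccs, Commd1, Ftl1, Fth1, Pim1, Cebpd, Socs3, Myh1 and S100a8. Among the other named genes the methods' test ended the calls of Slc39a6, Atox1, Ccs, Tfrc, Slc40a1, Hjv, Nr3c1, Cebpd, Socs3, Jak2, Cfd, Adipoq, Postn and Fn1, and no normalization those of Commd1, Hjv, Dusp1, Socs3, Jak1, Jak2 and Actn3.

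With the replicate number as a block, 1722 genes were called higher and 873 lower, Mt1 had an adjusted p of 3.16e-06 and Mt2 of 2.28e-05 from limma, and no call of a member changed. Whether the numbers pair the samples cannot be told from 3 arrays per group. Deviations of same-numbered arrays correlated at 0.126, -0.438 and 0.0976, and not every array correlated best with its own number. For Mt1 the block lowered the standard error from 0.25 to 0.16. The dim signal of Mt2 in the controls and of Mtf1 on nearly all arrays limits what can be said of both.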
